A study of Mus musculus with 12 samples.

Results

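The cell cycle and mitosis genes described here are 48 genes listed by name for their known roles. Measured values did not enter the rule, but the list was chosen with earlier results of these data known. All 48 had a row among the 23284 genes of the deposited table, and all 48 passed the filter on low values (at least 4 on the log2 scale in at least 6 libraries), together with 15096 genes in total. They were divided by role into 22 genes of G1 phase and DNA replication (G1/S), 23 genes of G2 phase and mitosis (G2/M) and 3 inhibitors of cyclin-dependent kinases (CDKs). The study sequenced poly-A RNA of prostate tissue from mice 4 months old. By their labels 6 libraries came from Nkx3.1 +/+ mice (wild-type) and 6 from Nkx3.1 -/- mice (null), Nkx3.1 being the targeted gene. Both groups had the same hybrid background of 129/SvImJ and C57Bl/6J, and the labels name no drug or other treatment. They name neither the prostate lobe nor how the mutant allele was made, and do not say that each library came from a separate animal, so the spread behind every p-value is that of these libraries and may be technical. Values are on a log2 scale on which undetected genes scattered around a median of 2.85 (95th percentile 3.51 over 1123 olfactory receptor genes). They are not scaled by transcript length, so each gene is compared between libraries and never with another gene's level, and the read depth is unknown.

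A dividing cell passes from G1, where D-type cyclins bind Cdk4 or Cdk6 and inactivate the retinoblastoma protein, into S phase, where freed E2F factors drive the genes that copy DNA. The Mcm2 to Mcm7 helicase is loaded on replication origins by Cdc6 and Cdt1, and ribonucleotide reductase, thymidylate synthase and thymidine kinase supply nucleotides. Mitosis is then driven by cyclins A and B with Cdk1, by Aurora and Polo kinases and by spindle motors, and it ends when the anaphase-promoting complex marks cyclin B for destruction. In the adult prostate, which renews slowly, most cells are not dividing. In bulk tissue, fewer cells of a type and less RNA per cell cannot be told apart.

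Libraries of each genotype fell into triplets. Over the 3630 most abundant genes (mean log2 value 10 or more, members left out), the median absolute log2 difference between wild-type libraries was 0.0388 to 0.0702 within the triplets 1 to 3 and 4 to 6, and 0.103 to 0.129 across them. Between null libraries it was 0.0535 to 0.112 within the triplets 1, 2, 5 and 3, 4, 6, and 0.122 to 0.169 across them. Between genotypes it was 0.199 to 0.258. These triplets were defined from expression over the genome in an earlier look at the data. Of the 48 members only Ccnd1, Ccnd3 and Cdk4 reach that abundance. The triplets are not groups of the study. Because libraries of a triplet may not be independent, calls are given over 12 libraries and over the 4 triplet means, 2 against 2. "Rose" and "fell" below mean an adjusted p under 0.05 by limma over 12 libraries.

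Over 12 libraries 20 members rose in null prostate, 3 fell and 25 were not called. Of all 15096 tested genes 53.1% were called, 28% higher and 25.1% lower. The share of members called, 47.9%, was thus near the background, with 41.7% higher and 6.25% lower. Of 23 G2/M members 14 rose and none fell, and of 22 G1/S members 6 rose and 3 fell, whereas none of the 3 inhibitors was called. The median difference was 0.41 over G2/M members, 0.21 over G1/S members and 0.012 over all tested genes, and 22 of 23 G2/M against 15 of 22 G1/S members had a positive difference. The difference between the phases was described and not tested. Leaving out wild-type library 1, null library 4 or null library 6 lowered the count of G2/M members that rose to 9. Over the 4 triplet means 0 members passed (limma, against 14.5% of all tested genes, 7.58% higher and 6.96% lower), and 6 (12.5%; Ccnd2, Cdk4, Cdk6, E2f1, Mcm4 and Mki67) had an unadjusted p under 0.05, fewer than the 32.9% of all tested genes at that cut. Upper quartile scaling turned the balance of all called genes from 52.7% higher to 40.9% higher and left 15 members higher and 4 lower (54.6% of all genes called, 22.3% higher and 32.3% lower). Quantile normalization gave 21 higher and 2 lower (54.8% of all genes called, 27.3% higher and 27.5% lower). An exact rank-sum test gave 15 and 3 (46.3% of all genes called). With the triplets as a random block 5 members were higher (Ccnd2, Cdk6, Mcm4, Kif11 and Mki67) and 2 lower (Cdk4 and E2f1), where 33% of all genes were called.

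**Figure D1:**
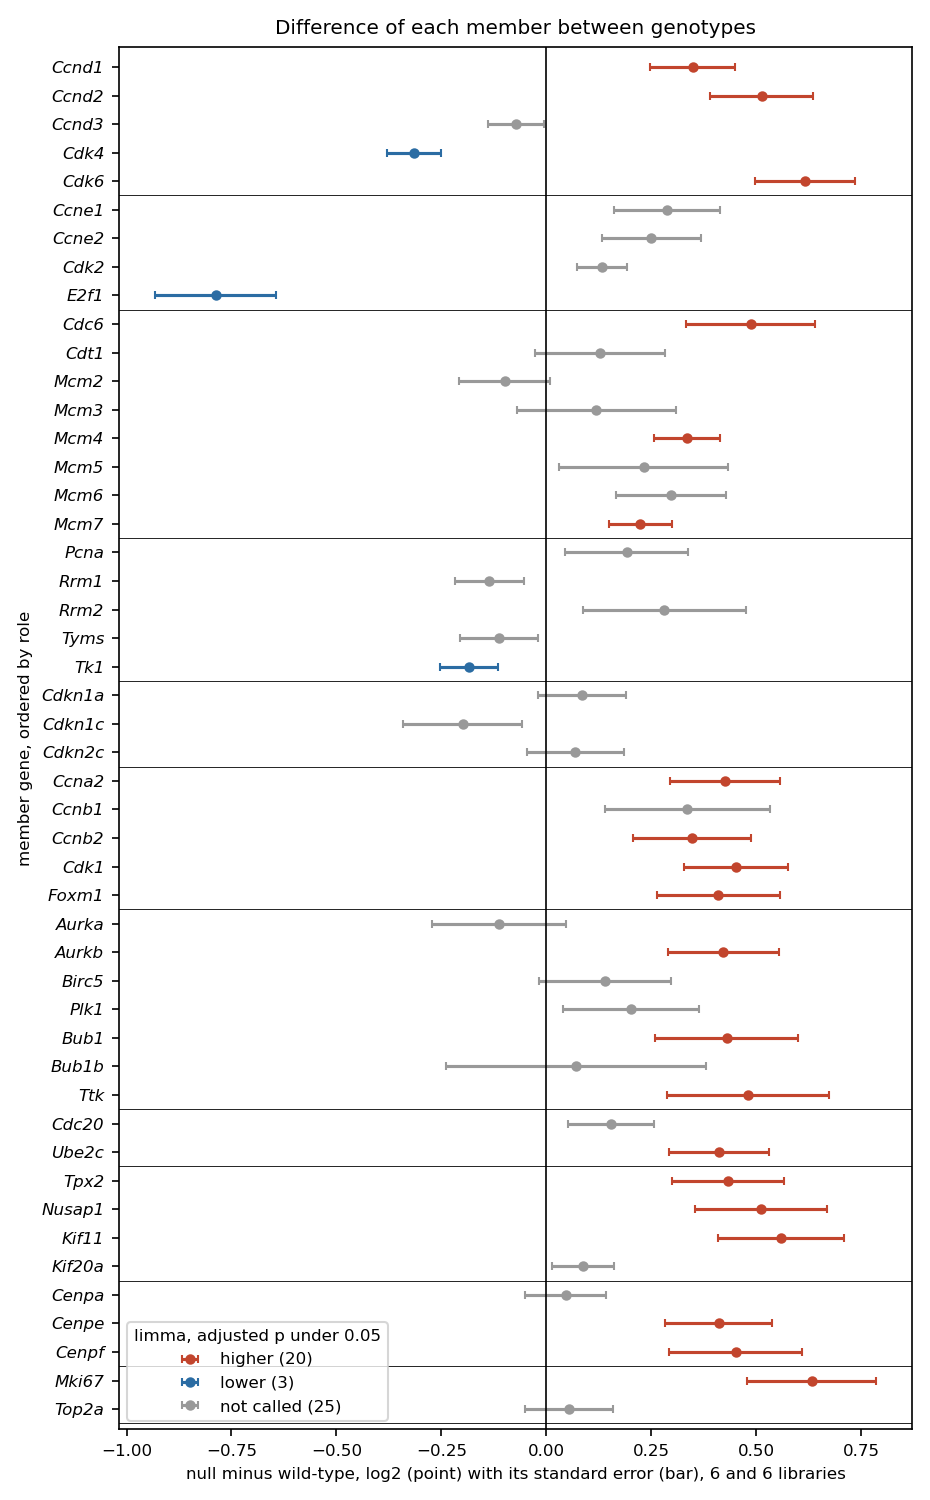
Null minus wild-type difference of each of the 48 members on the log2 scale (points) with its standard error from limma (bars), 6 libraries in each genotype, in order of role. The 14 called G2/M members lie to the right of 0, while E2f1, Cdk4 and Tk1 are the 3 called lower.

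The null libraries did not share 1 pattern. Taking each member's deviation from its wild-type mean, the median over G1/S members was 0.31, 0.38 and 0.37 in null libraries 3, 4 and 6 but -0.100, -0.071 and -0.047 in null libraries 1, 2 and 5, where wild-type libraries spanned -0.048 to 0.068. Over G2/M members it was 0.50, 0.57 and 0.49 in null libraries 3, 4 and 6 and 0.15, 0.23 and 0.18 in null libraries 1, 2 and 5, against -0.13 to 0.14 in wild-type libraries. Null libraries 1, 2 and 5 thus lay within or just below the wild-type range for G1/S members and just above it for G2/M members. The same median over all tested genes stayed between -0.0073 and 0.019 in every library.

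**Figure D2:**
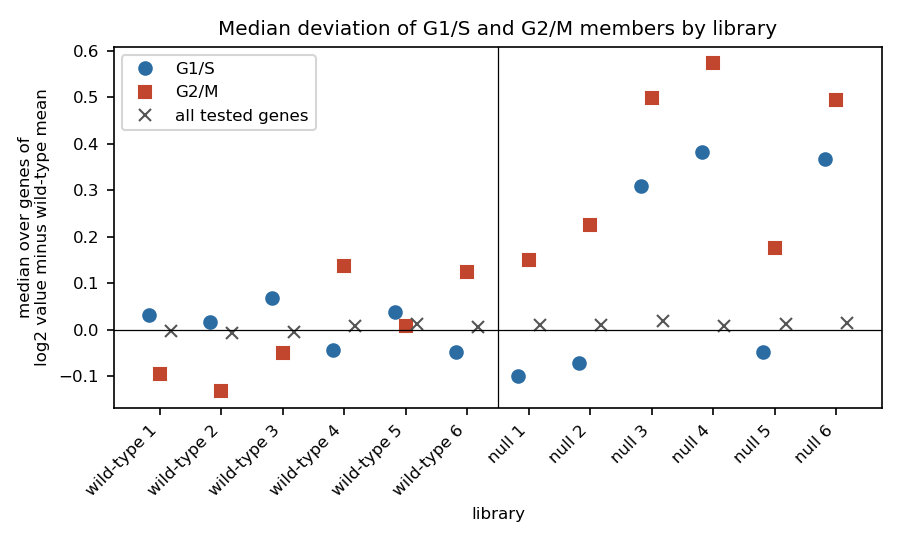
Median over 22 G1/S members, 23 G2/M members or all tested genes of the log2 value minus the gene's wild-type mean, for each of the 12 libraries. Null libraries 3, 4 and 6 stand highest for both phases, and null libraries 1, 2 and 5 lie near wild-type libraries for G1/S members.

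In 14 of 22 G1/S members (63.6%) and 12 of 23 G2/M members (52.2%), null libraries 3, 4 and 6 all stood above null libraries 1, 2 and 5, as they did in 24.6% of all tested genes. The spread between null libraries exceeded that between wild-type libraries for 36 of 48 members, against 60.4% of all tested genes, and the median SD over members was 0.26 in null and 0.15 in wild-type libraries. With either null triplet left out, 3 null libraries of the other triplet remain. If these are not independent they stand for 1 unit, and the adjusted p-values of those fits are then too small. The counts of called genes from those fits rest on the same p-values and carry the same limit. With null libraries 3, 4 and 6 left out, 4 members were higher (Ccnd1, Ccnd2, Cdk6 and Cdkn1a) and 7 lower (Cdk4, E2f1, Mcm2, Mcm3, Mcm5, Rrm1 and Tk1), where 50.5% of all genes were called, 25.8% higher and 24.7% lower. Of G2/M members 0 were called by limma, with 2 of 23 at an unadjusted p under 0.05, a cut that 56.5% of all tested genes passed. The median difference was then -0.091 over G1/S and 0.17 over G2/M members. With null libraries 1, 2 and 5 left out, 28 members were higher and 3 lower, where 52% of all genes were called, 28.2% higher and 23.8% lower, and the medians were 0.34 and 0.58. The counts also moved with the wild-type triplets. Without wild-type libraries 1 to 3, 6 members were higher, 1 of them G2/M, and 2 lower (45.2% of all genes called, 23.7% higher). Without wild-type libraries 4 to 6, 14 were higher, 10 of them G2/M, and 2 lower (46.8% of all genes called, 24.8% higher). In 7 of 23 G2/M members wild-type libraries 4 to 6 all stood above libraries 1 to 3, close to the 24.2% of all tested genes.

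**Figure D3:**
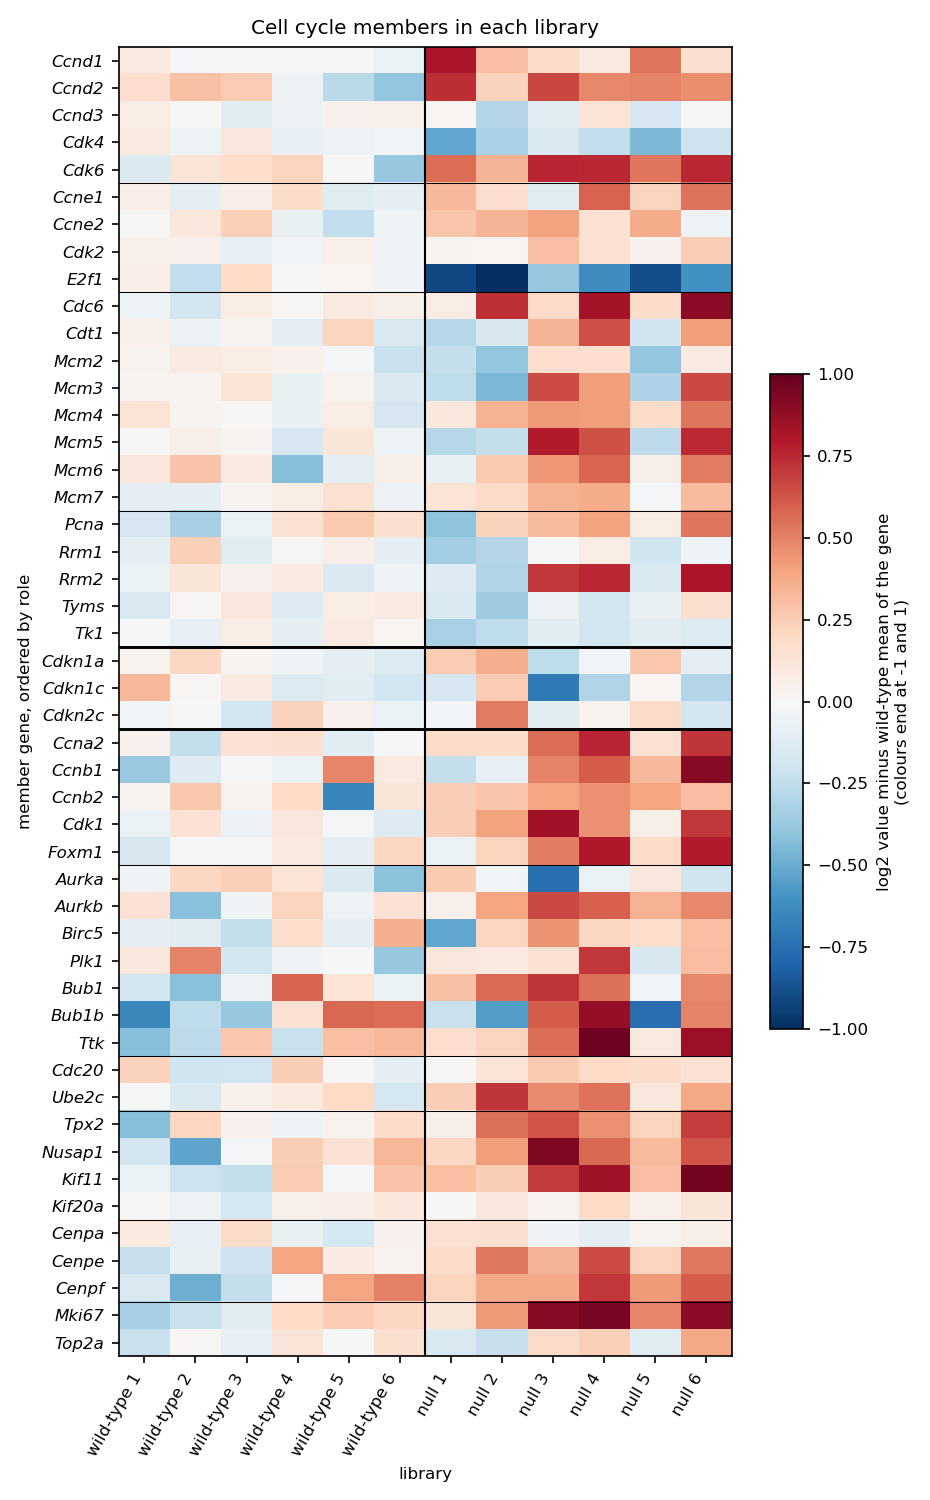
Log2 value minus the gene's wild-type mean for the 48 members (rows, by role; thick lines set off the 3 inhibitors) in each of the 12 libraries (columns); colours end at -1 and 1. Columns null 3, 4 and 6 are red across most replication and mitosis genes, and the E2f1 and Cdk4 rows are blue in all 6 null columns.

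Promoter motifs differed between the phases, and the sequences shown here carry some of the motifs counted. Late cell cycle genes are known for the cell cycle genes homology region (CHR), bound by the MuvB complex, together with CCAAT boxes, bound by NF-Y, and replication genes for E2F sites. RefSeq promoter windows (GRCm38.p6, 250 bases before to 50 after the start) were found for 38 of 48 members, and not for Ccnd1, Ccnd2, Ccne2, Mcm4, Cdkn1c, Ccna2, Foxm1, Aurkb, Tpx2 and Kif20a. Both strands were searched for the CHR core TTTGAA, for CCAAT and for 4 E2F sites (TTTCCCGC, TTTGGCGC, TTTCGCGC and TTTGCCGC). A gene was counted where any of its promoters matched; some members have more than 1 (20 promoters for 18 G1/S genes, 18 for 18 G2/M genes). The CHR core was found in 13 of 18 G2/M and 1 of 18 G1/S genes, against 20.2% of 27025 genes counted the same way and 17.9% of their 32851 promoters. In Cenpf, Bub1b, Aurka, Cenpa, Plk1 and Ttk it was found only in the 50 bases past the start. CCAAT was found in 16 of 18 G2/M and 10 of 18 G1/S genes (41.1% of all genes, 37.4% of promoters). An E2F site was found in 1 of 18 G2/M and 7 of 18 G1/S genes (2.6% of all genes, 2.26% of promoters). In Mcm3 and Cdt1 such sites were found only in the 50 bases past the start. All 13 G2/M genes with a CHR core also had CCAAT. Of these 13 genes 7 rose, and of the 5 G2/M genes without the core 3 rose. Null libraries 3, 4 and 6 stood above null libraries 1, 2 and 5 in 6 of 7 G1/S genes with an E2F site and in 7 of 11 without. Those 11 include E2f1, whose window reads as protein-coding sequence, so sites in its promoter could have been missed. The 250 bases before the start are given 5′ to 3′ for 4 mitosis genes that rose and 3 replication genes, with the matched letters of any of these motifs on either strand in capitals; neighbouring matches can overlap, as in CCAATTGG.
Mki67 (chr7:135716380-135716629, minus strand): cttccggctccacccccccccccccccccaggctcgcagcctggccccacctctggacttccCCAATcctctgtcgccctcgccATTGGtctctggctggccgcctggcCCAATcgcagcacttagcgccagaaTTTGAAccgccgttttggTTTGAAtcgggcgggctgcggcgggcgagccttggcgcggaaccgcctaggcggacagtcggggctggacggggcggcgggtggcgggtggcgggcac
Cdk1 (chr10:69352913-69353162, minus strand): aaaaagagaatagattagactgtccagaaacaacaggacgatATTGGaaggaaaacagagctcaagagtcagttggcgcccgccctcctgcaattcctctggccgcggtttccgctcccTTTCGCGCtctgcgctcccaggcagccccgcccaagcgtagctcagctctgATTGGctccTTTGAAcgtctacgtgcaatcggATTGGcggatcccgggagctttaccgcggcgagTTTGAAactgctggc
Kif11 (chr19:37376132-37376381, plus strand): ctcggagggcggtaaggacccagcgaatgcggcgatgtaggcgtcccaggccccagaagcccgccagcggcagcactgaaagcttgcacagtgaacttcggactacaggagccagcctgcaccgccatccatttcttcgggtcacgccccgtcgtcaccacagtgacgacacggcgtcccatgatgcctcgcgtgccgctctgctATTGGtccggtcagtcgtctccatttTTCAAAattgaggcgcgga
Ube2c (chr2:164769679-164769928, plus strand): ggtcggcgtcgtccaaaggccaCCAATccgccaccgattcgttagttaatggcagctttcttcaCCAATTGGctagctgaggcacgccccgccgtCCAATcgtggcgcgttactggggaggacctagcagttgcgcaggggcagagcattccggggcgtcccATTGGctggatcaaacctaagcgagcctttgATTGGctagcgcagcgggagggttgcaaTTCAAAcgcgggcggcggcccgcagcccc
Mcm5 (chr8:75109259-75109508, plus strand): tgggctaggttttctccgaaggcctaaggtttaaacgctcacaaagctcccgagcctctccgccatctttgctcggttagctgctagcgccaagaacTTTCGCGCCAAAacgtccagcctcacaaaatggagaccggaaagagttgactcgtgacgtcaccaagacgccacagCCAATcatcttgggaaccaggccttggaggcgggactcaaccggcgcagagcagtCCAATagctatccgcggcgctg
Mcm6 (chr1:128359706-128359955, minus strand): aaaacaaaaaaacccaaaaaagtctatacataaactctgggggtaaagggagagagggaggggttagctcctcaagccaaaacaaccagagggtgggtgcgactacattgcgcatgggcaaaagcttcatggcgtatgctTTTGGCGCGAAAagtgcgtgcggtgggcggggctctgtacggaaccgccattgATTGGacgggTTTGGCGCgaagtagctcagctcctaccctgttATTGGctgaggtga
Cdc6 (chr11:98907901-98908150, plus strand): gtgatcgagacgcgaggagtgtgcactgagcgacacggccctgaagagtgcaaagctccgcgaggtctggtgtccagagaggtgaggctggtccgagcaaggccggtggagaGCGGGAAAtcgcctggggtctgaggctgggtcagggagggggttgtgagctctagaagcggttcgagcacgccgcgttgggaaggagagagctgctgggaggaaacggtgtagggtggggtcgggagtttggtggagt
Mki67, Cdk1, Kif11 and Ube2c each show the CHR core (TTTGAA or its reverse complement TTCAAA) with at least 1 CCAAT box, and Cdk1 has an E2F site as well. Not all mitosis genes that rose are like them: Bub1, Nusap1 and Cenpe had no CHR core, and Ttk and Cenpf only past the start. Ccnb2, which also rose, had a core before the start and another past it. Mcm5 and Mcm6 carry E2F sites that overlap on opposite strands, and CCAAT boxes nearer the start, and Cdc6 has 1 E2F site and no CCAAT box in the stretch shown. A match is a run of letters and not a measured binding site.

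Among the 5 D-type cyclins and their kinases 3 genes rose and 1 fell, against 28% and 25.1% of all tested genes. Ccnd1, cyclin D1, stood at 10.48 to 10.64 (median 10.55) in wild-type and at 10.65 to 11.36 (median 10.79) in null libraries. No null library overlapped the wild-type range, and null libraries 1 and 5 were highest, at 11.36 and 11.08. Ccnd1 rose by 0.35 ± 0.10 (SE; adjusted p = 0.0103; 0.167 over triplet means). It lost its call after quantile normalization (adjusted p = 0.0631) and upper quartile scaling (adjusted p = 0.0575). Unlike most replication genes, Ccnd1 was lower in null libraries 3, 4 and 6 (10.73, 10.64 and 10.71) than in 1, 2 and 5 (11.36, 10.85 and 11.08). Ccnd2, cyclin D2, stood at 8.17 to 8.86 (median 8.62) in wild-type and 8.80 to 9.30 (median 9.05) in null libraries. It rose by 0.51 ± 0.12 (adjusted p = 0.00286; 0.102 over triplet means). Wild-type libraries 4 to 6 were the lowest, and null library 2 lay within the wild-type range. Ccnd3, cyclin D3, averaged 10.25 ± 0.073 (SD, n = 6) in wild-type libraries and, in null libraries, 10.18 ± 0.15 (SD, n = 6), and was not called (adjusted p = 0.377).

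The 2 kinases that bind these cyclins differed in sign. Cdk6 stood at 5.74 to 6.34 (median 6.18) in wild-type and 6.46 to 6.88 (median 6.77) in null libraries, without overlap, and rose by 0.62 ± 0.12, or 1.53-fold (adjusted p = 0.000557; 0.0809 over triplet means). Cdk4 stood at 10.72 to 10.92 (median 10.76) in wild-type and 10.28 to 10.66 (median 10.51) in null libraries, and every null library lay below every wild-type one. Cdk4 fell by 0.32 ± 0.065 (adjusted p = 0.000867; 0.122 over triplet means). No overlap between genotypes was seen for 2 members with null above (Ccnd1 and Cdk6) and 3 with null below (Cdk4, E2f1 and Tk1), against 17.4% and 15.2% of all tested genes (32.6% in all). Both kinases, Ccnd2 and E2f1 were past the threshold in each of the 4 fits that left out a triplet of either genotype, with the limit given above. In the GENCODE M21 annotation 31.2% of Cdk4 exon bases lie over exons of Tspan31 on the opposite strand, and 21.9% of those of Ccnd1 over Lto1 (Oraov1 in the table). The sources used here do not say that counting used strand, so such reads could not be told apart. Of those neighbours Tspan31 was not called (difference 0.092; adjusted p = 0.0650), and Oraov1 fell by 0.26 (adjusted p = 0.000256).

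E2f1, the factor that switches on replication genes when the retinoblastoma protein lets it go, had the largest difference of the 48 members in either direction. Its wild-type values were 6.46, 6.15, 6.59, 6.39, 6.42 and 6.36 in libraries 1 to 6, and its null values were 5.49, 5.06, 6.01, 5.78, 5.51 and 5.79. All 6 null libraries lay below all wild-type libraries, lowest in null library 2. E2f1 fell by 0.79 ± 0.14, to 0.58 of the wild-type level (adjusted p = 0.000356; 0.0765 over triplet means). The difference was -1.04 without null libraries 3, 4 and 6 and -0.53 without null libraries 1, 2 and 5. Null libraries 3, 4 and 6 stood above null libraries 1, 2 and 5 in E2f1, an order shared with most licensing genes, yet below wild-type libraries.

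**Figure D4:**
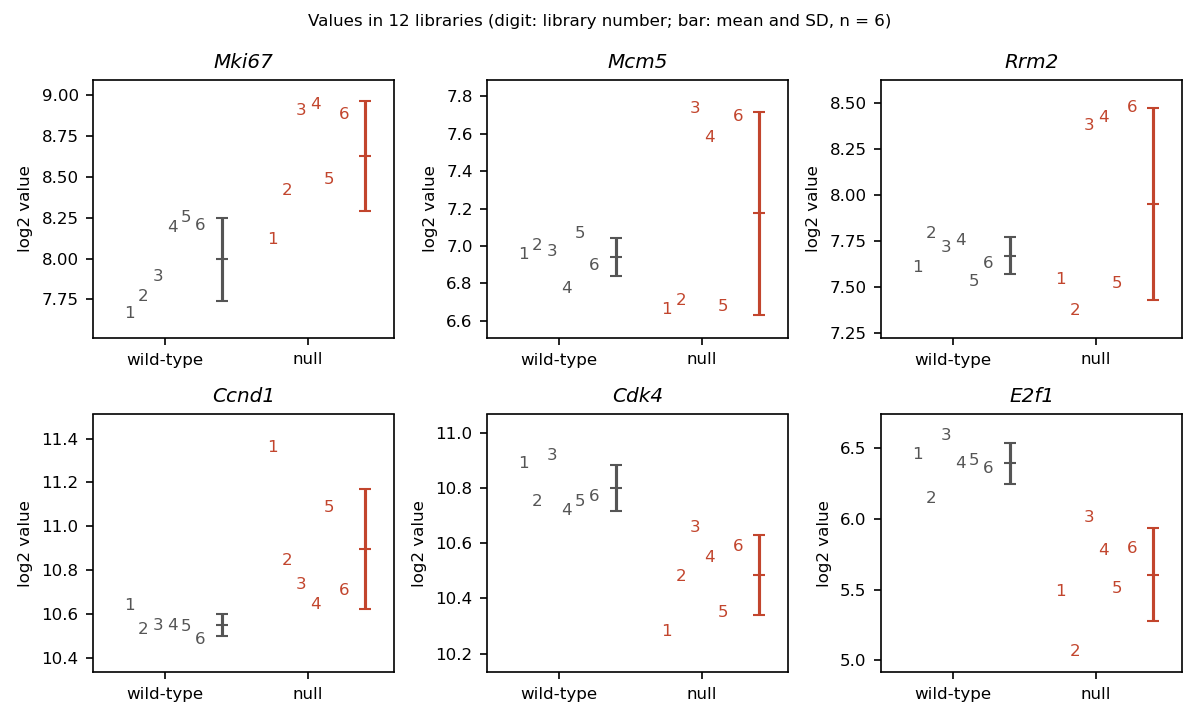
Log2 values of 6 members in the 12 libraries; digits are library numbers, and the bar gives the mean and SD of 6 libraries. For Mcm5 and Rrm2, null libraries 3, 4 and 6 stand above all others, while for Cdk4 and E2f1 all null libraries stand below all wild-type ones.

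The E-type cyclins and Cdk2, which carry the cell into S phase, were not called. Ccne1, cyclin E1, averaged 5.46 ± 0.12 (SD, n = 6) in wild-type libraries and, in null libraries, 5.75 ± 0.26 (SD, n = 6), so that the genotypes differed by 0.29 ± 0.13 (adjusted p = 0.0691). Ccne2, cyclin E2, differed by 0.25 ± 0.12 (adjusted p = 0.0877) and Cdk2 by 0.13 ± 0.060 (adjusted p = 0.0777). Genotypes overlapped in all 3. Both cyclins passed after quantile normalization, with differences of 0.39 (adjusted p = 0.0243) and 0.36 (adjusted p = 0.0122). Each also passed with 1 null library left out, Ccne1 without library 3 (adjusted p = 0.0171), Ccne2 without library 6 (adjusted p = 0.0398) and Cdk2 without library 2 (adjusted p = 0.0476).

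Of 8 origin licensing genes 3 rose (37.5%, against 28% of all tested genes) and 5 were not called. Most showed the split of the null libraries. In 7 of 8, all but Cdc6, null libraries 3, 4 and 6 stood above null libraries 1, 2 and 5 (24.6% of all tested genes). Mcm5, a subunit of the replicative helicase, stood at 6.95, 7.0, 6.97, 6.77, 7.07 and 6.89 in wild-type libraries 1 to 6. In null libraries 3, 4 and 6 it stood at 7.74, 7.58 and 7.69 and in null libraries 1, 2 and 5 at 6.66, 6.71 and 6.68. The first of these triplets lay above and the second below the whole wild-type range. Over 12 libraries Mcm5 differed by 0.23 ± 0.20 and was not called (adjusted p = 0.353), and the difference was -0.26 without null libraries 3, 4 and 6 and 0.73 without null libraries 1, 2 and 5.

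Mcm3, its partner in the helicase ring, was alike, at 6.49 to 6.77 (median 6.66) in wild-type libraries, 7.29, 7.06 and 7.29 in null libraries 3, 4 and 6 and 6.38, 6.18 and 6.33 in null libraries 1, 2 and 5. Its difference was 0.12 ± 0.19 over 12 libraries (adjusted p = 0.624), -0.34 without the first null triplet named and 0.58 without the second. Mcm2 stood at 8.40, 8.25 and 8.24 in null libraries 1, 2 and 5, below the wild-type range of 8.41 to 8.72 (median 8.67). In null libraries 3, 4 and 6 it stood at 8.80, 8.80 and 8.72, with libraries 3 and 4 above that range and library 6 at its top. Its difference of -0.10 ± 0.11 was not called (adjusted p = 0.461).

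Of the other helicase subunits, Mcm4 rose by 0.33 ± 0.079, with 7.91 to 8.22 (median 8.10) in wild-type and 8.19 to 8.61 (median 8.46) in null libraries (adjusted p = 0.00244; 0.146 over triplet means). Null library 1 alone lay within the wild-type range. Mcm7 rose by 0.22 ± 0.075 (adjusted p = 0.0212), and its call was lost after upper quartile scaling (adjusted p = 0.0619). Mcm6 differed by 0.30 ± 0.13 and was not called (adjusted p = 0.0687), though it passed without wild-type library 2, null library 1 or null library 5 (lowest adjusted p = 0.0221).

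The loading factors differed from each other. Cdc6, which brings the helicase to the origin, stood at 5.35 to 5.63 (median 5.57) in wild-type libraries and at 5.61, 6.27, 5.73, 6.37, 5.72 and 6.44 in null libraries 1 to 6. Null libraries 2, 4 and 6 were high and libraries 1, 3 and 5 near the wild-type top, an order unlike that of the helicase genes. Cdc6 rose by 0.49 ± 0.15 (adjusted p = 0.0153; 0.165 over triplet means). Cdt1, the second loader, stood at 6.90, 7.21 and 6.98 in null libraries 3, 4 and 6, above the wild-type range of 6.41 to 6.78 (median 6.55), and at 6.28, 6.40 and 6.36 in null libraries 1, 2 and 5, below it. Its difference of 0.13 ± 0.16 was not called (adjusted p = 0.515).

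Genes of nucleotide supply did not rise over 12 libraries. Rrm2, the S phase subunit of ribonucleotide reductase, stood at 7.60, 7.79, 7.72, 7.75, 7.53 and 7.63 in wild-type libraries 1 to 6. It stood at 8.38, 8.42 and 8.48 in null libraries 3, 4 and 6 and at 7.54, 7.37 and 7.52 in null libraries 1, 2 and 5. The first triplet lay above every other library, and the second at 1 value just above and 2 below the wild-type minimum. The difference over 12 libraries was 0.28 ± 0.19 (adjusted p = 0.244), and without null libraries 1, 2 and 5 it was 0.76. Rrm1, the large subunit of the same enzyme, differed by -0.14 ± 0.082 (adjusted p = 0.181) and by -0.28 without null libraries 3, 4 and 6, and it was called lower after upper quartile scaling (-0.21, adjusted p = 0.0301).

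Pcna, the sliding clamp of DNA polymerase, was lowest in null library 1 (7.49) and highest in null library 6 (8.43), and its difference of 0.19 ± 0.15 was not called (adjusted p = 0.290; 0.0339 without null library 1). Tyms, thymidylate synthase, differed by -0.11 ± 0.093 (adjusted p = 0.326). Tk1, thymidine kinase of the salvage route, stood at 7.27 to 7.46 (median 7.37) in wild-type and 7.05 to 7.27 (median 7.21) in null libraries, which did not overlap but nearly met. Tk1 fell by 0.18 ± 0.069 (adjusted p = 0.0356; 0.406 over triplet means). That call was lost after quantile normalization (adjusted p = 0.144) and on leaving out any 1 of wild-type libraries 1, 3, 5 and 6 or null libraries 1, 2 and 4 (highest adjusted p = 0.0767).

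None of the 3 CDK inhibitors was called over 12 libraries, and none had an unadjusted p under 0.05 in limma or the exact rank-sum test. Cdkn1a, which encodes p21, a p53 target that arrests the cycle, stood at 7.71 to 8.05 (median 7.84) in wild-type libraries, 8.10, 8.21 and 8.12 in null libraries 1, 2 and 5 and 7.59, 7.82 and 7.76 in null libraries 3, 4 and 6. Cdkn1c, which encodes p57, stood at 6.97 to 7.50 (median 7.12) in wild-type libraries, at 7.0, 7.42 and 7.18 in null libraries 1, 2 and 5 and at 6.46, 6.86 and 6.87 in the rest. In both genes null libraries 3, 4 and 6 lay below null libraries 1, 2 and 5, the opposite of most G1/S members, as in 14.3% of all tested genes. Cdkn1a differed by 0.086 ± 0.10 (adjusted p = 0.515), and by 0.30 without null libraries 3, 4 and 6. Cdkn1c differed by -0.20 ± 0.14 (adjusted p = 0.257), and by -0.43 without null libraries 1, 2 and 5. Exons of Gm44732 cover 30.3% of Cdkn1c exon bases on the opposite strand. Cdkn2c, which encodes the Cdk4 and Cdk6 inhibitor p18, differed by 0.070 ± 0.12 (adjusted p = 0.642) and was highest in null library 2, at 7.44.

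**Figure D5:**
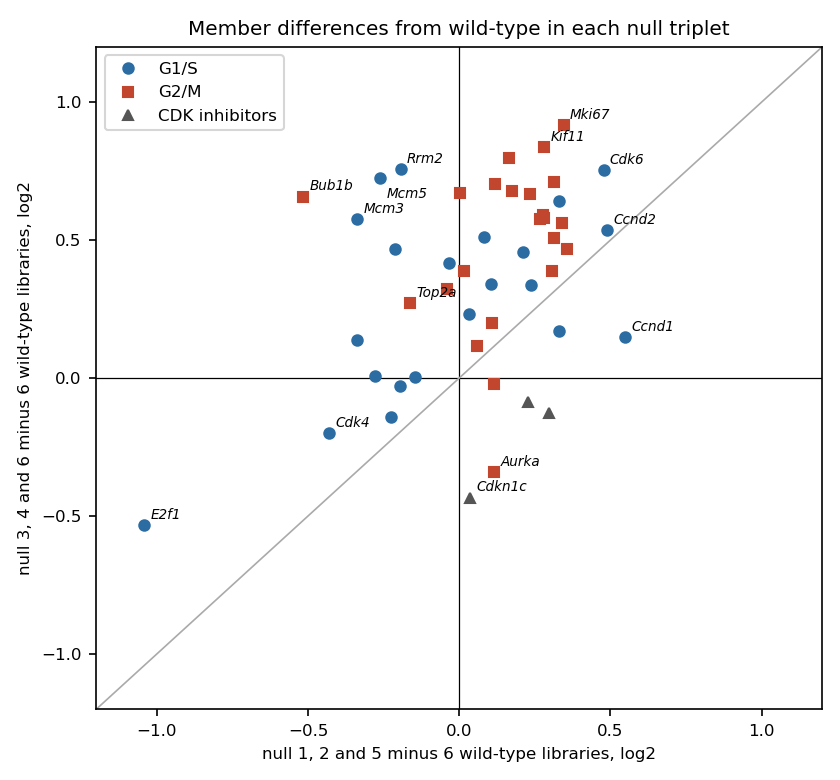
Difference from the 6 wild-type libraries on the log2 scale of null libraries 1, 2 and 5 (horizontal) and of null libraries 3, 4 and 6 (vertical), 1 point for each of the 48 members; the grey line marks equal differences. Most G1/S and G2/M members lie above the line, Mcm3, Mcm5, Rrm2 and Bub1b have opposite signs on the axes, and E2f1 and Cdk4 are below 0 on both.

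Mki67, the chromosome coat protein used as a proliferation marker, showed the largest rise of the 48 members. It stood at 7.66, 7.77, 7.89, 8.19, 8.25 and 8.20 in wild-type libraries 1 to 6 and at 8.12, 8.42, 8.90, 8.95, 8.48 and 8.89 in null libraries 1 to 6. Null libraries 3, 4 and 6 were highest, and null library 1 lay below wild-type libraries 4 to 6. Mki67 rose by 0.63 ± 0.15, or 1.55-fold (adjusted p = 0.00334; 0.144 over triplet means). Without null libraries 3, 4 and 6 the difference was 0.35. Top2a, the topoisomerase that untangles chromosomes before division, averaged 8.59 ± 0.14 (SD, n = 6) in wild-type libraries and, in null libraries, 8.64 ± 0.25 (SD, n = 6), and was not called (adjusted p = 0.690). In null libraries 1, 2 and 5 it stood at 8.433, 8.357 and 8.486, where the wild-type range was 8.364 to 8.746 (median 8.60). Null library 2 thus lay just below that range, and null libraries 1 and 5 toward its low end.

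Among mitotic cyclins and their partners, 4 of 5 genes rose (28% of all tested genes did). Cdk1, the kinase that starts mitosis, stood at 6.25 to 6.52 (median 6.35) in wild-type and at 6.62, 6.78, 7.22, 6.83, 6.44 and 7.09 in null libraries 1 to 6. Only null library 5 lay within the wild-type range. Cdk1 rose by 0.45 ± 0.12 (adjusted p = 0.00697; 0.189 over triplet means). Ccna2, cyclin A2, rose by 0.43 ± 0.13 (adjusted p = 0.0133), with 5.85 to 6.25 (median 6.11) in wild-type and 6.25 to 6.86 (median 6.46) in null libraries. Null libraries 3, 4 and 6 (6.65, 6.86 and 6.81) made up the upper end. Foxm1, the transcription factor of late cell cycle genes, rose by 0.41 ± 0.15 (adjusted p = 0.0290) and ranged from 6.02 in null library 1 to 6.89 in null libraries 4 and 6. Its call was lost without wild-type library 1 or 5 or null library 3, 4 or 6 (highest adjusted p = 0.0696). Ccnb2, cyclin B2, rose by 0.35 ± 0.14 at the edge of the threshold (adjusted p = 0.04999) and lost its call in 10 of 12 leave-one-out fits, all but those without wild-type library 2 or 4 (highest adjusted p = 0.0878). Ccnb1, cyclin B1, was not called (difference 0.34 ± 0.20; adjusted p = 0.167).

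Of 7 mitotic kinase and checkpoint genes 3 rose (42.9%, against 28% of all tested genes). Aurkb, the Aurora kinase of the chromosomal passenger complex, stood at 5.27 to 5.91 (median 5.74) in wild-type and 5.74 to 6.35 (median 6.12) in null libraries, and rose by 0.42 ± 0.13 (adjusted p = 0.0148). Null library 1 lay inside the wild-type range, and null libraries 3, 4 and 6 were highest. Birc5, which encodes survivin of the same complex, was not called (difference 0.14 ± 0.16; adjusted p = 0.478). Aurka, the Aurora kinase of spindle poles, was the 1 G2/M member with a negative difference (-0.11 ± 0.16; adjusted p = 0.578), and stood at 6.22, 6.91 and 6.78 in null libraries 3, 4 and 6 against 7.24, 6.95 and 7.09 in 1, 2 and 5. Plk1, the Polo kinase, differed by 0.20 ± 0.16 (adjusted p = 0.313).

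The spindle checkpoint kinases Bub1 and Ttk rose by 0.43 ± 0.17 (adjusted p = 0.0457) and 0.48 ± 0.19 (adjusted p = 0.0493). Bub1 lost its call in 9 of 12 leave-one-out fits, all but those without wild-type library 4 or null library 1 or 5 (highest adjusted p = 0.103), and Ttk in 6, those without wild-type library 1, 2 or 4 or null library 3, 4 or 6 (highest adjusted p = 0.110). Bub1b, which encodes the checkpoint protein BubR1, varied most within genotypes. It stood at 5.62, 6.01 and 5.88 in wild-type libraries 1 to 3 and 6.42, 6.84 and 6.82 in libraries 4 to 6. In null libraries 1, 2 and 5 it stood at 6.04, 5.71 and 5.50 and in null libraries 3, 4 and 6 at 6.87, 7.14 and 6.76. Both genotypes thus held a low and a high triplet at like levels, and the difference between genotypes was 0.071 ± 0.31 (adjusted p = 0.863).

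Partners of the anaphase-promoting complex were split. Ube2c, its ubiquitin-conjugating enzyme, stood at 5.37 to 5.75 (median 5.56) in wild-type and 5.65 to 6.26 (median 5.98) in null libraries and rose by 0.41 ± 0.12 (adjusted p = 0.00909). Null library 2 was highest and null library 5 lay within the wild-type range, so the rise did not follow the null triplets. Exons of Tnnc2 cover 22.8% of Ube2c exon bases on the opposite strand, and Tnnc2 itself differed by -0.032 (adjusted p = 0.884). Cdc20, the activator of the complex, was not called (difference 0.15 ± 0.10; adjusted p = 0.222).

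Of 4 spindle genes 3 rose, as did 28% of all tested genes. Kif11, the kinesin that pushes spindle poles apart, stood at 5.97, 5.82, 5.79, 6.29, 6.02 and 6.32 in wild-type libraries 1 to 6 and 6.33, 6.28, 6.73, 6.88, 6.34 and 6.99 in null libraries 1 to 6. Null libraries 3, 4 and 6 were the highest, and null library 2 fell between wild-type libraries. Kif11 rose by 0.56 ± 0.15 (adjusted p = 0.00594; 0.194 over triplet means). Nusap1, a microtubule bundling protein, rose by 0.51 ± 0.16 (adjusted p = 0.0132) and Tpx2, the activator of Aurka on the spindle, by 0.43 ± 0.13 (adjusted p = 0.0133). Kif20a, a kinesin of cytokinesis, was not called (difference 0.088 ± 0.073; adjusted p = 0.334), with 31.8% of its exon bases over exons of Cdc23 on the opposite strand, which fell by 0.22.

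Of 3 centromere genes 2 rose, as did 28% of all tested genes. Cenpe, a kinetochore kinesin, rose by 0.41 ± 0.13 (adjusted p = 0.0144) and Cenpf, a kinetochore and nuclear matrix protein, by 0.45 ± 0.16 (adjusted p = 0.0266). Wild-type libraries 1 to 3 of Cenpf stood at 6.01, 5.68 and 5.92, below all 6 null libraries, which spanned 6.38 to 6.87 (median 6.56), while wild-type libraries 5 and 6 lay within the null range. The call of Cenpf was lost without wild-type library 1, 2 or 3 or null library 4 or 6 (highest adjusted p = 0.0613). Cenpa, the centromeric histone, averaged 5.79 ± 0.14 (SD, n = 6) in wild-type libraries and, in null libraries, 5.84 ± 0.10 (SD, n = 6), and was not called (adjusted p = 0.711).

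Further cell cycle genes were taken from 8 lists drawn up by role, with 53.1% of all tested genes called (28% higher, 25.1% lower) and 14.5% over triplet means (7.58% higher, 6.96% lower). Of 17 pocket protein, E2F and MuvB genes 8 rose and 1 fell, with a median difference of 0.23, and over triplet means 3 were higher and 1 lower. Among them E2f5, a repressor E2F, rose by 0.71 (adjusted p = 2.09e-07), Tfdp1, the dimer partner of E2F factors, rose by 0.55 (adjusted p = 8.24e-07) and the MuvB gene Lin54 rose by 0.73 (adjusted p = 1.64e-06), and these are the 3 that were higher over triplet means. Of 10 other G1 regulators 4 rose and 1 fell, and 1 was higher over triplet means. The phosphatase gene Cdc25a rose by 0.46 (adjusted p = 0.0371 over triplet means) and Cdkn1b, which encodes the inhibitor p27, by 0.31 (0.0804), and Fbxw7, which targets cyclin E for destruction, fell by 0.22 (0.177). Of 25 replication genes 9 rose and 2 fell, and over triplet means none was higher and 1 lower. Fen1, the flap endonuclease, fell by 0.56 (adjusted p = 1.18e-06; 0.0331 over triplet means) and Gins2, a helicase cofactor, by 0.83 (adjusted p = 8.77e-05; 0.0599 over triplet means), while Dbf4, the activator of the Cdc7 kinase, rose by 0.63 (adjusted p = 0.000184; 0.0700 over triplet means).

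Among lists of mitosis genes, the median ran from 0.052 to 0.44. Of 22 mitotic kinesin and cytokinesis genes 15 rose and 1 fell, with a median of 0.44, and 1 was higher over triplet means. Kif23, a kinesin of the central spindle, rose by 1.41 ± 0.12, from 6.01 ± 0.18 (SD, n = 6) to 7.42 ± 0.25 (SD, n = 6) (adjusted p = 3.24e-07; 0.0150 over triplet means), and Kifc1 rose by 0.69 (0.0708 over triplet means) and Kif22 by 0.57 (0.0772). Kif23 thus differed by more than any of the 48 members. Of 15 condensin and cohesin genes 11 rose and 1 fell, with a median of 0.29, and 2 were higher over triplet means. The condensin genes Smc4 and Ncapd3 rose by 0.82 and 0.66 (adjusted p = 0.0103 and 0.0125 over triplet means), and Ncaph2 fell by 0.27 (0.104). Of 18 kinetochore and checkpoint genes with a value, 3 rose and 3 fell (median 0.068), none of them over triplet means. Spc25, a subunit of the Ndc80 complex, fell by 0.88 (adjusted p = 0.129 over triplet means), Cenpb fell by 0.23 (0.227), and Hjurp, the chaperone of Cenpa, rose by 0.43 (0.209). Of 16 genes of mitotic entry and exit 4 rose and 2 fell (median 0.052), and 1 was lower over triplet means. Wee1, the kinase that holds Cdk1 inactive, fell by 0.60 (adjusted p = 6.01e-08; 0.0148 over triplet means), Cdc23 fell by 0.22 (0.138), and Cdc25b, a phosphatase that activates Cdk1, rose by 0.44 (0.127).

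Because Cdkn1a is a p53 target, 15 other p53 targets were examined: 9 rose, 1 fell and 6 were higher over triplet means (7.58% of all tested genes), with a median difference of 0.37. Plk2 rose by 1.10, Trp53inp1 by 0.97 and Bax, a pore-forming apoptosis protein, by 0.46, each also over triplet means (adjusted p = 0.00934, 0.0149 and 0.0240). Cdkn1a itself did not pass in either fit (adjusted p = 0.515 and 0.776).

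Levels of several cell type marker lists differed between the null triplets as well, and their part in the values above was not tested. The luminal epithelial markers Krt8, Krt18 and Epcam stood between 11.68 and 13.98 in all 12 libraries. Of all tested genes 28% rose and 25.1% fell over 12 libraries. Null libraries 3, 4 and 6 all stood above 1, 2 and 5 in 24.6% of them and below in 14.3%. Of 7 basal epithelial markers 6 rose, and 5 stood higher in null libraries 3, 4 and 6 than in 1, 2 and 5. The log2 of their summed linear values was 11.71 to 11.92 in wild-type libraries, 12.13 to 12.22 in null libraries 1, 2 and 5 and 12.60 to 12.64 in null libraries 3, 4 and 6. All 5 smooth muscle markers stood lower in null libraries 3, 4 and 6 (summed level 15.70 to 15.97) than in 1, 2 and 5 (16.22 to 16.44), with wild-type libraries at 16.02 to 16.24. None of these 5 rose or fell between genotypes. Of 7 luminal markers 4 rose and 3 fell, with a summed level of 15.89 to 16.13 in null libraries 3, 4 and 6, 15.75 to 15.77 in 1, 2 and 5 and 15.81 to 16.05 in wild-type libraries. All 7 seminal vesicle genes rose, to a summed level of 16.74 to 17.91 in null libraries 3, 4 and 6 and 18.17 to 20.27 in 1, 2 and 5, against 6.49 to 11.60 in wild-type libraries. Over triplet means 5 were higher (7.58% of all tested genes), all but Svs2 and Svs5 (limma, adjusted p = 0.358 and 0.122). Svs2 stood at 11.2, 11.3 and 11.2 in wild-type libraries 1 to 3 and 4.5, 4.8 and 4.5 in 4 to 6. In null libraries 3, 4 and 6 it stood at 11.6, 12.6 and 12.1.

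White blood cells can also divide, and most of their markers fell over 12 libraries, where 25.1% of all tested genes fell and 28% rose. Of 10 lymphocyte markers 8 fell, with a summed level of 9.24 to 10.22 in wild-type and 8.85 to 9.13 in null libraries, and all 9 myeloid markers fell, at 11.92 to 12.76 and 11.40 to 11.51. Over triplet means 2 lymphocyte markers and 1 myeloid marker were lower, against 6.96% of all tested genes. Some falls rest on wild-type libraries 1 to 3: Ptprc stood at 8.68, 8.74 and 8.74 there, at 7.84, 7.80 and 7.89 in wild-type libraries 4 to 6 and at 7.96, 7.72, 7.85, 7.61, 7.78 and 7.85 in null libraries. Cd3e, which was not called, stood at 5.10, 4.87 and 4.94 in wild-type libraries 4 to 6, below its null values of 5.14, 5.22, 5.17, 5.21, 5.40 and 5.30. For both lists the ranges of the null triplets overlapped (8.91 to 9.00 and 11.40 to 11.51 in null libraries 3, 4 and 6). Alas2, the heme synthesis enzyme of red cell precursors, rose by 0.52. Of 5 urothelial markers 3 were tested, and of these Upk1b and Upk2 rose. Upk3b, not tested, stood at 2.71, 3.06 and 2.66 in wild-type libraries 1 to 3, 7.57, 7.52 and 7.45 in libraries 4 to 6 and 3.35, 2.39, 3.48, 5.27, 2.88 and 4.64 in null libraries. The summed level of all 5 was 12.54 to 12.81 in wild-type, 13.22 to 13.53 in null libraries 1, 2 and 5 and 13.72 to 14.45 in null libraries 3, 4 and 6. Fibroblast, endothelial and adipocyte lists had 1 of 6, 1 of 5 and 0 of 7 members lower, and 0, 0 and 4 higher. In 3 of 6 fibroblast and 3 of 5 endothelial markers null libraries 3, 4 and 6 stood below 1, 2 and 5 (14.3% of all tested genes). In 1 endothelial marker they stood above. The summed adipocyte level was 7.95 to 9.31 in wild-type libraries. It was 9.70 to 10.46 in null libraries 3, 4 and 6 and 7.73 to 11.39 in 1, 2 and 5.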

How the data were processed

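The authors deposited 1 table of log2-scale expression values for 23284 gene symbols in 12 libraries (the labels and the file header do not say how they were transformed). Per the labels' protocols, RNA was poly-A selected, prepared with an Illumina TruSeq kit and sequenced on a HiSeq 2000. Tools listed in the submitters' processing notes, without their roles, are DESeq, Cufflinks 2.0.2, TopHat2 2.0.4 and CASAVA 1.8.2, and the build is mm9. No counts or depths were used, so precision was judged from the spread between libraries.

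The deposited values were tested with limma 3.58.1 in R 4.3.3 (trend and robust moderation, genotype the only term), with no pseudocount, over 15096 genes at 4 or more in at least 6 libraries, and adjusted by the Benjamini-Hochberg method over all of them at a threshold of 0.05. The fit was checked on simulated data. A second fit used 4 means of 3 libraries. Alternatives were an exact rank-sum test, quantile normalization, upper quartile scaling, no filter, a filter at 5, limma with neither trend nor robust moderation, a random block per triplet, and each library or triplet left out. The members, lists, triplets and filter were chosen with earlier results of these data known, and no list was tested as a set. Named genes are all 48 members and up to 3 called genes of each list by adjusted p. Promoters came from RefSeq (GRCm38.p6), and exon overlap from GENCODE M21. The level of the targeted gene is not reported here.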

Additional observations from a re-analysis of the deposited data

Results flagged for a closer look

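In 3 of 96 groups of 6 libraries (48 members in 2 genotypes) 1 library stood apart from the other 5, by a gap, relative to the whole range, past the critical value of Dixon's test. Chance alone gives about 1 such group in 20. Mcm2 stood at 8.41 in wild-type library 6, against 8.62 to 8.72 in the others. Ccnb2 stood at 4.97 in wild-type library 5, against 5.66 to 5.89, and without that library its difference was 0.22. Birc5 stood at 5.41 in null library 1, against 6.10 to 6.38.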

How the results depend on the processing

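Over the 4 triplet means 0 members were called higher and 0 lower (0 G1/S and 0 G2/M higher), and 2195 genes were called in all. With the triplets as a random block 5 members were higher (3 G1/S and 2 G2/M) and 4984 genes were called. Without wild-type libraries 1 to 3, 6 members were higher, 1 of them G2/M. Without null libraries 1, 2 and 5, 13 G1/S members were higher. Without null libraries 3, 4 and 6, 4 members were higher and 7 lower (3 G1/S and 0 G2/M higher), and the median differences were -0.091 (G1/S) and 0.17 (G2/M). Leaving out 1 library gave 15 to 21 members higher, 2 to 3 lower, 6 to 8 G1/S and 9 to 13 G2/M members higher, medians of 0.13 to 0.24 (G1/S) and 0.35 to 0.46 (G2/M) and 7586 to 7887 called genes. Of 23 called members 17 kept their call in all 12 of these fits and 0 changed sign. Counts under the other alternatives stayed within 1.5 times those reported. The filter at 5 left out 2 members.

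No called member changed sign when scaling, filter, moderation or test was changed. Signs turned for members that were not called over 12 libraries: under upper quartile scaling Cdkn2c (-0.0011), Cenpa (-0.024) and Top2a (-0.016); without wild-type libraries 1 to 3 Cdkn2c (-0.0013), Aurka (0.025), Birc5 (-0.0085), Bub1b (-0.36) and Top2a (-0.044); and without wild-type libraries 4 to 6 Cdkn1a (-0.0035) and Cenpa (-0.024). Without null libraries 1, 2 and 5 they turned for Ccnd3 (0.0027), Mcm2 (0.14), Rrm1 (0.0076), Cdkn1a (-0.13), Cdkn2c (-0.088) and Cenpa (-0.022). Without null libraries 3, 4 and 6 they turned for Cdt1 (-0.21), Mcm3 (-0.34), Mcm5 (-0.26), Pcna (-0.035), Rrm2 (-0.19), Cdkn1c (0.035), Aurka (0.12), Birc5 (-0.041), Bub1b (-0.52) and Top2a (-0.16). Leaving out 1 library gave -0.020 to 0.12 for Cdkn2c, -0.19 to 0.016 for Aurka, -0.090 to 0.24 for Bub1b and -0.011 to 0.11 for Top2a. The causes were not tested. No paired analysis was possible because the labels give the libraries no replicate numbers that link the genotypes. Depth is unknown, and values near 3.51 cannot be told from undetected genes.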
